A study of Homo sapiens with 18 samples.

Results

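The 41 genes described here were lower in OCI-Ly1 and higher in TMD8 after 500 nM JIB-04. Both are established human cell lines of diffuse large B-cell lymphoma, and the compound is an inhibitor of Jumonji histone demethylases. The genes were chosen by their measured CPM (an estimated count scaled to the library's total, in counts per 1000000) from 23686 measured genes. The DMSO or the 500 nM group of each line had to average 5 CPM or more. The gene's log2 ratio of 500 nM to DMSO, with 0.5 CPM added to both means, had to be -0.5 or less in OCI-Ly1 and 0.5 or more in TMD8. CYP1A1 also met these thresholds and was left out by the rule. Of the 23686 genes, 10273 reached the CPM minimum in both lines. The mirrored rule (higher in OCI-Ly1, lower in TMD8) found 32 genes, while 679 genes were higher in both lines and 223 were lower in both. The rule used the 12 DMSO and 500 nM libraries, so the contrast between these groups is given below as a description of how the genes were chosen, and nothing is read from its tests.

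Total RNA was depleted of ribosomal RNA and sequenced in 18 libraries, 3 for each of 6 groups. OCI-Ly1 cells, grown in IMDM with serum, were given JIB-04 at 150 nM, JIB-04 at 500 nM, or 0.01% DMSO as the vehicle. TMD8 cells, grown in RPMI 1640 with serum, received the same 3 treatments, so cell line and medium cannot be told apart. The 3 libraries of a group were technical replicates of 1 established line, and no label states that cultures were separate. Every p-value below therefore measures the spread between libraries, which may be technical. The labels used here give no treatment time.

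Jumonji demethylases remove methyl groups from histone lysines, and their inhibition can raise or lower transcription depending on the mark and the gene. OCI-Ly1 is commonly used as a germinal-centre type of diffuse large B-cell lymphoma and TMD8 as an activated B-cell-like type, in which chronic B-cell receptor and NF-kB signalling are known features. Several of the 41 genes belong to the surface and antigen-handling equipment of B cells: tetraspanins and adhesion receptors, and the HLA-DM peptide loader. Others encode proteins inside the cell, among them an NADPH oxidase subunit and the NF-kB subunit REL.

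The upstream sequences of the 4 highest-ranked genes with an entry in the RefSeq promoter table are shown because the smaller of their 2 log2 ratios was the largest in the set. Each is the 250 bases before the annotated start on GRCh38.p14, written 5′ to 3′ on the gene's strand. Capitals mark matches, on either strand, to any of 17 motifs searched. These were GCGTG (the core bound by the aryl hydrocarbon receptor), CACGTG (E-box), GGGANTTCC (NF-kB, first form), GGGGNTTTC (NF-kB, other form), TGANTCA (AP-1), TGACGTCA (CRE), GAAANNGAA (interferon response), GAANNTTC (heat shock), CCGGAAG (ETS), CCAAT (bound by NF-Y), TATAAA (bound by TBP), TTTNGCGC (E2F), GGGCGG (SP/KLF), ATGCAAAT (octamer), GCGTGGGCG (EGR), GCGCNTGCG (NRF1) and AAGATGGCG (YY1). GCGTG lies within the EGR motif. Only the aryl hydrocarbon receptor core, the NF-Y motif and the SP/KLF box were matched in these 4 stretches.
PRX, chr19:40414790-40415039, minus strand: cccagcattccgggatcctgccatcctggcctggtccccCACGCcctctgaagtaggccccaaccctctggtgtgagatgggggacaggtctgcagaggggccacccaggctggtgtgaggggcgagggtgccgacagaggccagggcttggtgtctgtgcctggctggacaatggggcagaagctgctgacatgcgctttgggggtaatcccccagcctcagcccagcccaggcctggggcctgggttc
RPS6KA2, chr6:166862526-166862775, minus strand: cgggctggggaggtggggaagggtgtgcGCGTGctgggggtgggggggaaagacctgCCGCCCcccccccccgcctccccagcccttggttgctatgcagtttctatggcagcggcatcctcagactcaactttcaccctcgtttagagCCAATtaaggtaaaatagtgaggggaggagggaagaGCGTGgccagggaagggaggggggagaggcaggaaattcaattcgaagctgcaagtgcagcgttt
CD82, chr11:44565413-44565662, plus strand: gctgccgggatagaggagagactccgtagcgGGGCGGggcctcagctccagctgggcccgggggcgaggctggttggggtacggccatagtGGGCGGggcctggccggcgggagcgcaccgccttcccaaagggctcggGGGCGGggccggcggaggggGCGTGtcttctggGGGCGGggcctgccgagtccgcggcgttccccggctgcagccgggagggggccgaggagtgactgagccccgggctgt
NLRP7, chr19:54947531-54947780, minus strand: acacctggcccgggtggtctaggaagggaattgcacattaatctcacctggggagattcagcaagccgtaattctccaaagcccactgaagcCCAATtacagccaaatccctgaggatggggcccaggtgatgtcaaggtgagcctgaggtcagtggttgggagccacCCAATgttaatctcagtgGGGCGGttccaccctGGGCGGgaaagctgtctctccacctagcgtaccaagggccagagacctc
The stretch before CD82 held 26 CpG dinucleotides and 4 GGGCGG boxes, against 5 CpG each before PRX and NLRP7 and 10 before RPS6KA2. NLRP7 carried 2 CCAAT and 2 GGGCGG matches, RPS6KA2 carried 2 GCGTG matches with 1 CCAAT and 1 GGGCGG, and PRX carried 1 GCGTG match. The matched motifs are common: GGGCGG occurred in 42.6%, GCGTG in 32.2% and CCAAT in 32.0% of the 35116 stretches of this length in the table. A match here is a description of letters and not a bound site. Only 30 of the 41 genes (73.2%) had a promoter entry, below the 80% needed, so a comparison of motifs or CpG content over the whole set is void and none is given.

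Depth was 17579732 to 32651115 estimated counts per library for OCI-Ly1. It was 9550092 to 20509500 for TMD8, where the third 500 nM library was the shallowest. No pair of replicates agreed within sampling noise, so each library was kept. All 6 B-cell markers were present in both lines, summing to 1137 to 1302 CPM in OCI-Ly1 and 2369 to 2735 CPM in TMD8. The T-cell list summed to 20.5 to 39.1 CPM, with CD3D, CD3E and CD2 at the floor of 3 counts in every TMD8 group. Fewer cells of a type and less RNA per cell cannot be told apart in these bulk libraries. Of other lineages, the stromal list moved with treatment in TMD8, from 4.65 to 5.66 CPM with DMSO to 33.7 to 34.6 CPM at 500 nM, with 2 of its 5 genes at 1 CPM or more in both groups. The myeloid list summed to 1.35 to 2.22 CPM with DMSO and 3.92 to 4.61 CPM at 500 nM there, with MPO and FCGR3A at the floor. The part of these markers in the results below was not tested.

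One library stood apart for a few of the genes. In the second DMSO library of OCI-Ly1, 10 of the 10273 genes were at least 2.5 times as high as in both other libraries of the group, against 0 to 3 genes in each of the other 17 libraries. PDGFA read 4.91, 52.0 and 4.91 CPM in the 3 DMSO libraries, KLLN 11.6, 34.3 and 11.0, CCBE1 4.72, 13.2 and 4.79, and HSPA1A 3.96, 9.26 and 3.76. Without that library their log2 ratios in OCI-Ly1 were -0.15 for PDGFA, 0.13 for KLLN, 0.04 for CCBE1 and -0.18 for HSPA1A, so their place in the set rests on 1 library. RRM2B, at -0.51 with all libraries, was at -0.49 without it and so also left the set. Leaving out each of the 12 libraries in turn kept 20 of the 41 genes every time and lost 21 at least once, GLYATL1 in 5 of the 12.

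**Figure D1:**
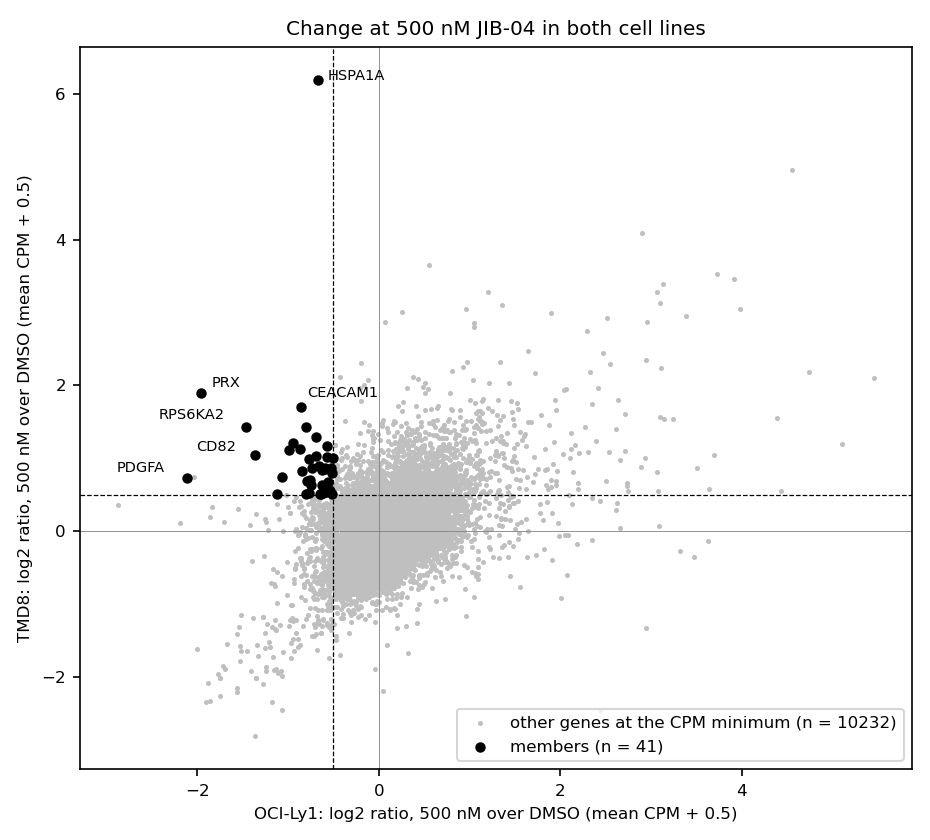
Log2 ratio of 500 nM JIB-04 to DMSO (mean CPM + 0.5) in OCI-Ly1 (horizontal) and TMD8 (vertical) for the 10273 genes at the CPM minimum; black points are the 41 genes, dashed lines the thresholds of -0.5 and 0.5. The set fills the upper left corner, with PRX at -1.96 and 1.90 and HSPA1A at 6.2 in TMD8; the single grey point beyond both thresholds is CYP1A1, which the rule leaves out.

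On the ratio that chose them, the 41 genes ran from -2.11 (PDGFA) to -0.51 (RRM2B and GLYATL1) in OCI-Ly1. In TMD8 they ran from 0.50 (LINC00652 and GLYATL1) to 6.2 (HSPA1A). The smaller of the 2 ratios exceeded 1 in size for PRX, RPS6KA2 and CD82. Near the OCI-Ly1 threshold, PIK3CG and LOC202781 lay just outside at -0.4985 and -0.4977. Near the TMD8 threshold, NCF4 and PAPL lay just outside at 0.4983 and 0.4958. Among all 10273 genes, 557 (5.42%) passed the OCI-Ly1 threshold and 1540 (15%) the TMD8 threshold. All 41 genes passed the low-count filter of every fit. For 15 of them the CPM minimum was met only through the group in which they were high: 10 were under 5 CPM at 500 nM in OCI-Ly1 and 8 were under 5 CPM with DMSO in TMD8, with CCBE1, GNG11 and HSPA1A in both counts.

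PRX had the largest value of the smaller ratio. Where 3 sets of library values follow each other below, they are DMSO, 150 nM and 500 nM in that order. PRX encodes periaxin, a scaffold protein best known from myelinating Schwann cells. In OCI-Ly1 it measured 90.1, 92.5 and 78.8 CPM with DMSO, 78.6, 68.1 and 66.3 CPM at 150 nM and 20.7, 23.8 and 21.6 CPM at 500 nM. In TMD8 it measured 1.19, 0.816 and 1.12 CPM with DMSO, 1.53, 2.81 and 2.81 CPM at 150 nM and 5.94, 4.65 and 5.13 CPM at 500 nM. The 3 TMD8 groups did not overlap, and even at 500 nM TMD8 stayed below every OCI-Ly1 library. PRX left the set without the first 500 nM library of TMD8. The edgeR log2 fold changes at 500 nM were -2.07 ± 0.08 (SE) in OCI-Ly1 and 2.24 ± 0.24 in TMD8.

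RPS6KA2 encodes a ribosomal S6 kinase that acts downstream of ERK. Its OCI-Ly1 libraries read 21, 23 and 19.7 CPM with DMSO, 17.4, 16.1 and 16.9 CPM at 150 nM and 6.77, 7.53 and 7.91 CPM at 500 nM. Its TMD8 libraries read 7.68, 10.3 and 8.09 CPM with DMSO, 14.7, 16.3 and 16.7 CPM at 150 nM and 23.5, 22.7 and 26.4 CPM at 500 nM. The groups formed separate steps in both lines, so that the gene was higher in OCI-Ly1 with DMSO, near equal at 150 nM and higher in TMD8 at 500 nM. The log2 fold changes at 500 nM were -1.61 ± 0.10 in OCI-Ly1 and 1.38 ± 0.10 in TMD8.

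CD82 encodes a tetraspanin, a membrane organiser that restrains cell movement. It read 11.8, 10.1 and 9.12 CPM with DMSO, 9.26, 8.68 and 6.41 CPM at 150 nM and 3.08, 4.06 and 3.95 CPM at 500 nM in OCI-Ly1. TMD8 held several times more, at 39.1, 47.1 and 48.5 CPM with DMSO, 71.4, 70.4 and 78.3 CPM at 150 nM and 92.8, 91.6 and 95.5 CPM at 500 nM. The 3 TMD8 groups were separate, while in OCI-Ly1 the DMSO and 150 nM libraries overlapped. NLRP7, a NOD-like receptor, had the opposite balance of lines. It read 139, 144 and 143 CPM, 129, 126 and 126 CPM and 66.5, 75 and 73 CPM at the 3 rising doses in OCI-Ly1. In TMD8 the same doses gave 4.7, 5.0 and 5.36 CPM, 6.56, 6.81 and 6.85 CPM and 11.6, 12.1 and 10.6 CPM. No library of one dose overlapped another in either line.

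GNG11, a G-protein gamma subunit, read 7.91, 7.91 and 7.89 CPM with DMSO, 7.11, 7.36 and 7.31 CPM at 150 nM and 3.86, 4.31 and 3.39 CPM at 500 nM in OCI-Ly1. The TMD8 values were 2.44, 2.39 and 1.8 CPM, 4.82, 4.21 and 5.27 CPM and 5.4, 6.18 and 5.65 CPM. The doses were again separate in both lines. LOC644669, a transcribed pseudogene, read 13.3, 13.3 and 11.5 CPM, 12.1, 10.9 and 12.2 CPM and 7.04, 6.18 and 7.03 CPM in OCI-Ly1. TMD8 libraries gave values of 2.56, 3.01 and 3.83 CPM, 3.43, 4.05 and 5.75 CPM and 7.24, 6.87 and 8.11 CPM. Its DMSO and 150 nM libraries overlapped in both lines, and only the 500 nM libraries stood clear.

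CEACAM1, an adhesion receptor whose long form carries inhibitory motifs, read 14.6, 14.3 and 14 CPM with DMSO, 13.9, 12 and 12.7 CPM at 150 nM and 8.18, 7.53 and 7.32 CPM at 500 nM in OCI-Ly1. In TMD8 it read 8.04, 8.27 and 8.29 CPM, 17.4, 22.3 and 23.6 CPM and 29.1, 28.1 and 26.4 CPM. Most of its TMD8 difference was present at the lower dose. NCF1C is a near-identical pseudogene copy of the oxidase gene NCF1. It read 25.3, 25.3 and 23.5 CPM, 22.5, 20.3 and 18.6 CPM and 14.3, 14 and 12.4 CPM in OCI-Ly1. The TMD8 values were 6.97, 6.49 and 7.28 CPM, 8.65, 8.21 and 10.3 CPM and 12, 13.3 and 12.5 CPM. Its groups did not overlap in either line.

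**Figure D2:**
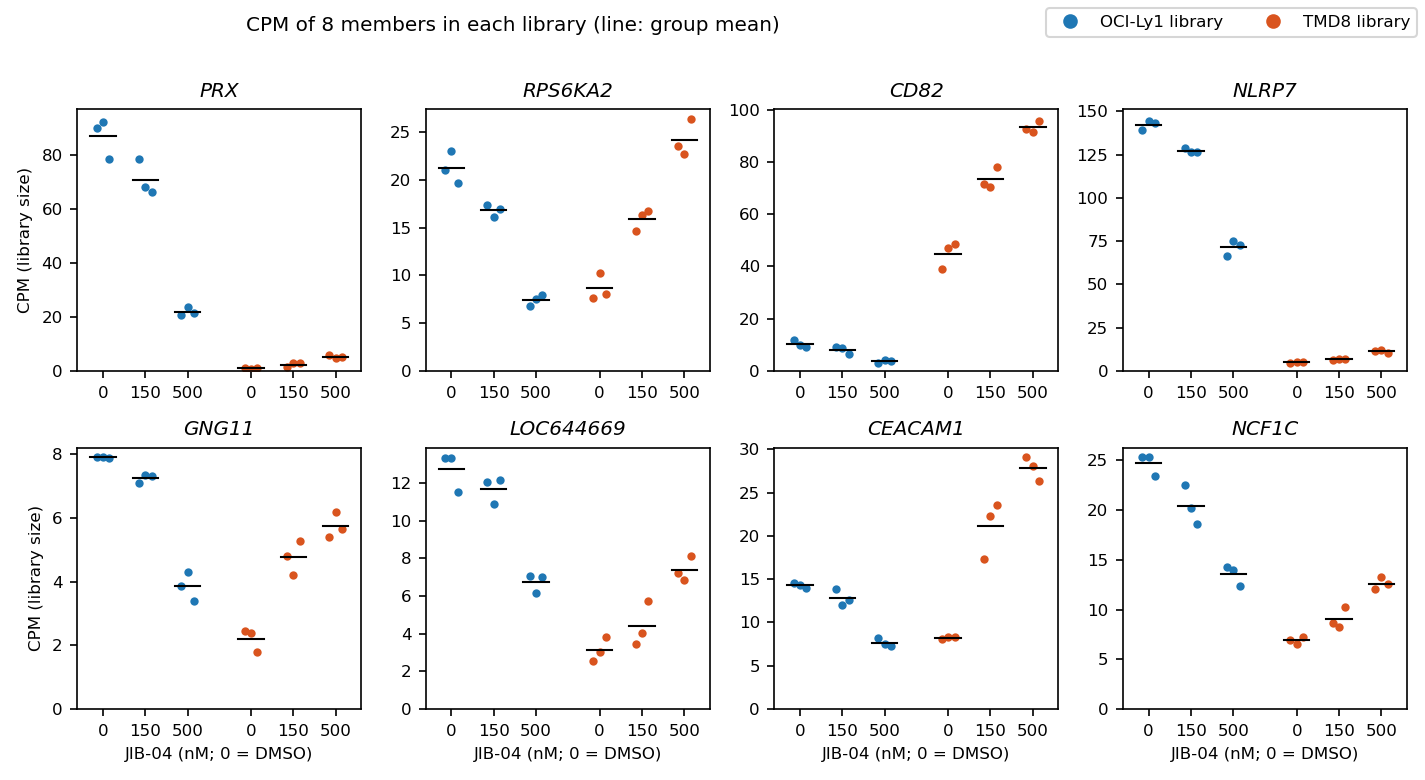
CPM of the 8 highest-ranked genes in each of the 18 libraries (points; blue OCI-Ly1, orange TMD8) against JIB-04 dose in nM, with 0 for DMSO and a black line at each group mean; every axis starts at 0. Blue points step down and orange points step up with dose, from 90.1, 92.5 and 78.8 to 20.7, 23.8 and 21.6 CPM for PRX in OCI-Ly1.

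The 10 membrane proteins and receptors included the most abundant transcript of the set. Per length, CD37 averaged 305 TPM (transcript abundance scaled by length and library) over the 18 libraries, ahead of RRM2B at 54.6, ID3 at 50.9 and PPP1R35 at 42.4 TPM. CD37, a tetraspanin of mature B cells, read 31.6, 28.7 and 30.2 CPM with DMSO and 20.5, 19.9 and 17.2 CPM at 500 nM in OCI-Ly1. TMD8 libraries gave values of 883, 821 and 846 CPM with DMSO and 1157, 1204 and 1281 CPM at 500 nM. On the TPM scale its TMD8 group means were nearly level, at 569 with DMSO, 585 at 150 nM and 586 at 500 nM. CD84, a SLAM-family receptor of lymphocytes, was at 37.4 ± 1.78 CPM (SD, n = 3) with DMSO, 37.4 ± 1.99 CPM at 150 nM and 21.7 ± 2.03 CPM at 500 nM in OCI-Ly1. In TMD8 it was at 14.4 ± 2.31 CPM, 27.4 ± 3.36 CPM and 29.1 ± 1.97 CPM, a log2 change of 0.84 ± 0.10 by 150 nM and 0.92 ± 0.10 by 500 nM.

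The other membrane genes are given by group means with their SD (n = 3). LILRB3, an inhibitory leukocyte receptor, averaged 8.49 ± 1.14 CPM with DMSO and 5.31 ± 0.539 CPM at 500 nM in OCI-Ly1, against 3.08 ± 0.831 and 5.9 ± 0.693 CPM in TMD8. CNR2, the cannabinoid receptor of immune cells, averaged 19.5 ± 0.701 CPM with DMSO and 11.1 ± 0.889 CPM at 500 nM in OCI-Ly1, against 4.61 ± 0.359 and 7.74 ± 0.914 CPM in TMD8. KREMEN1, a Dickkopf receptor that dampens Wnt signalling, averaged 15.3 ± 2.65 CPM with DMSO and 9.79 ± 1.74 CPM at 500 nM in OCI-Ly1, against 11.9 ± 2.19 and 18.5 ± 1.87 CPM in TMD8. SLC16A4, of the monocarboxylate transporter family, averaged 8.22 ± 1.65 CPM with DMSO and 5.28 ± 0.75 CPM at 500 nM in OCI-Ly1, against 10.5 ± 1.64 and 19.3 ± 1.02 CPM in TMD8. The transmembrane protein gene PRRG4 averaged 10.2 ± 0.891 CPM with DMSO and 6.75 ± 0.68 CPM at 500 nM in OCI-Ly1, against 11.1 ± 1.94 and 18.1 ± 1.26 CPM in TMD8.

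HLA-DMA and HLA-DMB encode the 2 chains of HLA-DM, which removes the invariant-chain fragment from MHC class II molecules so that antigen peptides can bind. They lie next to each other on chromosome 6 and were the only members that neighbour each other. HLA-DMA read 9.94, 10.1 and 8.8 CPM with DMSO, 10.1, 9.84 and 9.59 CPM at 150 nM and 3.71, 4.67 and 4.56 CPM at 500 nM in OCI-Ly1. The TMD8 values were 31.9, 27.7 and 28.1 CPM, 41.7, 44.3 and 49.8 CPM and 47.6, 48.4 and 52.3 CPM. The OCI-Ly1 libraries overlapped between DMSO and 150 nM and stood apart at 500 nM, while in TMD8 most of the difference was present at 150 nM. HLA-DMB averaged 6.21 ± 0.587 CPM with DMSO and 4.07 ± 0.473 CPM at 500 nM in OCI-Ly1, against 20.4 ± 2.56 and 30.4 ± 1.65 CPM in TMD8.

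Most genes of the MHC class II list were higher after JIB-04 in TMD8, and many were at or near 0 in OCI-Ly1. In TMD8, 13 of 15 listed genes, the HLA-DM genes included, were called higher at 500 nM and 12 at 150 nM, with median log2 changes of 0.30 and 0.37 against 0.04 and 0.01 over all genes. HLA-DRA, a chain of the peptide-presenting molecule HLA-DR, went from 472 to 585 CPM, HLA-DPA1 from 129 to 196 CPM, and CIITA, the master activator of the class, from 115 to 262 CPM. Over all genes tested at 500 nM, 27.7% were called higher and 25.9% lower for OCI-Ly1, with 29.9% and 30.7% for TMD8. At 150 nM the shares were 0.748% higher and 0.141% lower for OCI-Ly1, with 19.2% and 25% for TMD8. The counts of this and the following lists are to be read beside the shares of the same dose and line. In OCI-Ly1 only 9 of the 15 could be tested, 3 called higher and 4 lower at 500 nM. HLA-DRB1, HLA-DRB5, HLA-DPB1 and HLA-DQA1 had a mean of 0 CPM there with DMSO and at 500 nM, and HLA-DRA was at 0.194 CPM with DMSO. CIITA, CD74 and RFX5 were at 48.4, 236 and 209 CPM with DMSO in OCI-Ly1, and CIITA was called higher at 500 nM in both lines, at 0.28 and 1.09. Of the 9 genes tested in both lines, CTSS, HLA-DMA, HLA-DMB and HLA-DOA were called lower in OCI-Ly1 and higher in TMD8. The cathepsin gene CTSS changed by -0.29 and 0.21, and HLA-DOA, a modulator of HLA-DM, by -0.53 and 0.20. HLA-DMA and HLA-DMB are in that count because the rule chose them on the same libraries.

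**Figure D3:**
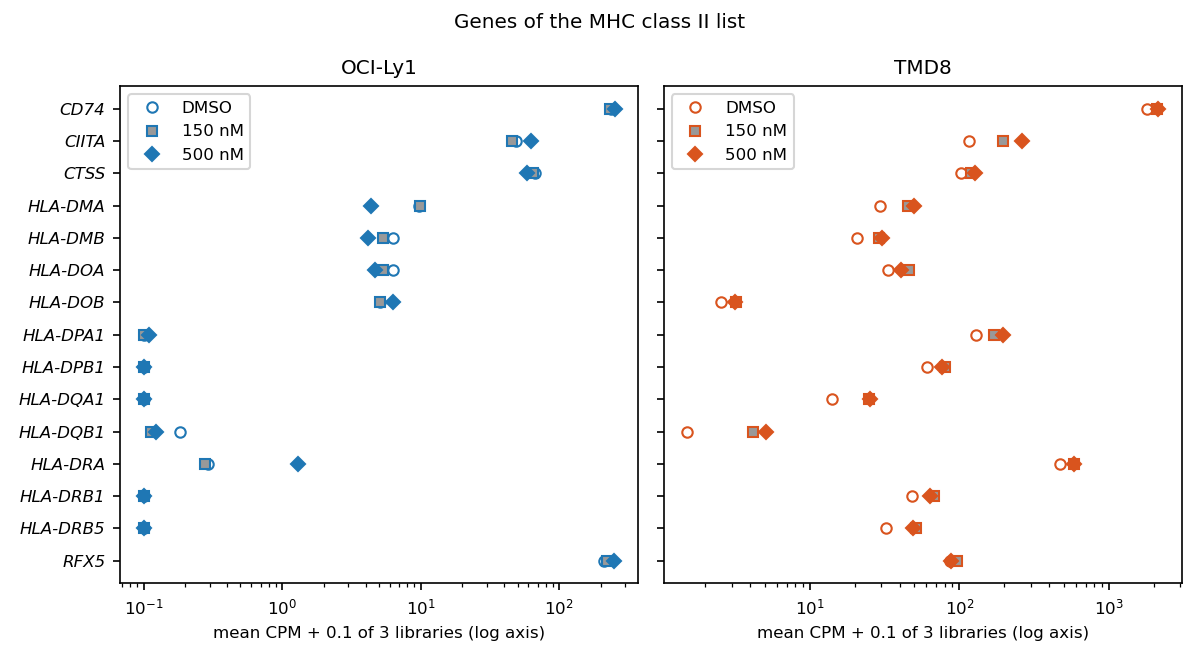
Mean CPM plus 0.1 of 3 libraries (log axis; the 2 panels have different ranges) for the 15 genes of the MHC class II list in OCI-Ly1 and TMD8 with DMSO (open circles), 150 nM (grey squares) and 500 nM JIB-04 (filled diamonds). HLA-DMA and HLA-DMB shift left in OCI-Ly1 and right in TMD8, while the DR, DP and DQ genes sit near 0.1 (that is, about 0 CPM) in OCI-Ly1, apart from HLA-DRA at 1.21 CPM with 500 nM.

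NCF1 encodes the cytosolic organiser of the NADPH oxidase that makes superoxide in phagocytes and B cells. It read 25.7, 23.9 and 27.6 CPM with DMSO, 23.1, 17.5 and 18.3 CPM at 150 nM and 11.4, 12.4 and 10.8 CPM at 500 nM in OCI-Ly1. TMD8 libraries gave values of 12.2, 12.8 and 12.1 CPM, 14.3, 14.9 and 14.2 CPM and 18.9, 14.9 and 19.8 CPM. Reads of NCF1, NCF1C and a further copy, NCF1B, can be split between them in the counting, so each single value is uncertain. Their sum was 60.8 ± 1.76 CPM with DMSO, 48.6 ± 5.93 CPM at 150 nM and 30.3 ± 1.29 CPM at 500 nM in OCI-Ly1. In TMD8 the sum was 22.9 ± 0.67 CPM, 27.5 ± 1.06 CPM and 35.6 ± 1.91 CPM, so the opposite directions do not depend on how the copies were split. Of the other oxidase subunits, chosen after their values were seen, NCF4 lay just outside the set with changes of -1.17 ± 0.13 in OCI-Ly1 and 0.41 ± 0.07 in TMD8. The membrane subunit gene CYBA went the other way in TMD8, at -0.58 ± 0.07, with 0.03 ± 0.07 (not called) in OCI-Ly1.

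ALOX5, the lipoxygenase that opens leukotriene synthesis, read 181, 157 and 173 CPM with DMSO, 178, 160.1 and 169.5 CPM at 150 nM and 99, 103 and 105 CPM at 500 nM in OCI-Ly1. In TMD8 it read 5.6, 5.71 and 6.09 CPM, 7.59, 8.98 and 11.2 CPM and 11.8, 9.92 and 11.2 CPM. Its OCI-Ly1 libraries overlapped between DMSO and 150 nM, and its TMD8 libraries overlapped between the doses but not with DMSO.

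Signalling and transcription accounted for 7 genes. REL encodes the NF-kB subunit c-Rel. It read 102, 105 and 112 CPM with DMSO, 106, 108 and 104 CPM at 150 nM and 63, 60.6 and 65 CPM at 500 nM in OCI-Ly1. The TMD8 values were 59.7, 62.3 and 64.9 CPM, 88.4, 90.6 and 105 CPM and 103, 98.1 and 103 CPM. The OCI-Ly1 libraries changed at the higher dose alone (edgeR log2 -0.02 ± 0.06 at 150 nM and -0.85 ± 0.06 at 500 nM), the TMD8 libraries at both (0.52 ± 0.06 and 0.61 ± 0.06). In the list of NF-kB target genes, 17 of 25 tested were called higher and 2 lower at 500 nM in OCI-Ly1 (27.7% and 25.9% of all genes). In TMD8, 15 of 30 were called higher and 6 lower (29.9% and 30.7% of all genes).

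ID3 binds and inhibits basic helix-loop-helix transcription factors. It read 99.2, 90.4 and 74.6 CPM with DMSO, 86.1, 76.2 and 78.9 CPM at 150 nM and 54.2, 60.1 and 55.9 CPM at 500 nM in OCI-Ly1. TMD8 libraries gave values of 18.6, 17.5 and 18.6 CPM, 18.6, 19.5 and 22.5 CPM and 28.8, 29.1 and 27.9 CPM. It was the member with the smallest share of its TMD8 change at 150 nM. In its list of Notch, Wnt and TGF-beta genes, 15 of 24 were called higher and 3 lower in OCI-Ly1 at 500 nM, and 15 of 22 higher and 3 lower in TMD8. RASAL1, which switches Ras off, averaged 136 ± 11.2 CPM with DMSO and 91.6 ± 8.63 CPM at 500 nM in OCI-Ly1, against 21.1 ± 0.818 and 43 ± 1.06 CPM in TMD8.

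OAS3, an interferon-induced sensor enzyme of double-stranded RNA, had the largest share of its TMD8 difference at 150 nM. It read 15.9, 15.5 and 15.6 CPM with DMSO, 18.1, 15 and 17.8 CPM at 150 nM and 9.44, 11.8 and 11.2 CPM at 500 nM in OCI-Ly1. In TMD8 it read 17.4, 19.8 and 17.7 CPM, 29, 35.8 and 33.9 CPM and 31.6, 33.2 and 31.5 CPM, and its 150 nM and 500 nM libraries overlapped. Its neighbour OAS1 was called higher in TMD8 (1.14) and was not called in OCI-Ly1 (0.09). Among 28 interferon-stimulated genes tested in OCI-Ly1, 5 were called higher and 9 lower at 500 nM, and among 29 in TMD8, 8 higher and 9 lower. The TMD8 counts were near the shares over all genes (29.9% higher and 30.7% lower). OAS2 and OAS3 were the 2 called lower in OCI-Ly1 and higher in TMD8.

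Secreted proteins accounted for 3 members. WNT10A is a Wnt ligand. It read 7.99, 7.05 and 8.09 CPM with DMSO, 6.07, 5.12 and 4.46 CPM at 150 nM and 5.3, 4.67 and 4.11 CPM at 500 nM in OCI-Ly1. The TMD8 values were 40.4, 41.9 and 41.7 CPM, 50.1, 53.8 and 57.6 CPM and 73.4, 80.1 and 78.3 CPM. The TMD8 groups were separate at every dose, and in OCI-Ly1 both doses lay below DMSO. PDGFA, a growth factor for mesenchymal cells, read 7.93, 8.79 and 9.15 CPM, 9.94, 12.1 and 14 CPM and 13.6, 14.8 and 15.5 CPM in TMD8. CCBE1, which helps to activate a lymphatic growth factor, read 2.77, 4.57 and 4.88 CPM, 5.98, 7.28 and 8.81 CPM and 10.1, 8.45 and 10.8 CPM there. The OCI-Ly1 values of PDGFA and CCBE1 rest on the second DMSO library, as given above: the other DMSO libraries lay within or beside the 150 nM values of 4.5, 5.09 and 4.49 CPM and 5.09, 5.61 and 3.87 CPM.

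Metabolism and stress responses accounted for 5 members. ALDOC, an aldolase isoform of glycolysis, read 34.4, 38 and 54.5 CPM with DMSO, 24.6, 22.4 and 16.5 CPM at 150 nM and 28.3, 21.3 and 28.3 CPM at 500 nM in OCI-Ly1. TMD8 libraries gave values of 17.8, 16.5 and 18.2 CPM, 22.1, 22.7 and 27 CPM and 42, 43.4 and 45.4 CPM. It was the 1 member called at 150 nM in OCI-Ly1, with a log2 change of -1.0 ± 0.16 (edgeR adjusted p = 0.0020). The value was -0.76 without the third DMSO library, and the gene left the set without that library. On log2(TPM + 1) the value was -0.93 and not called (limma adjusted p = 0.10). In the hypoxia and glycolysis list, 6 of 20 genes were called lower at 150 nM in OCI-Ly1, where 0.141% of all genes tested were. These were ALDOC, PFKFB4 at -1.70, PGK1 at -0.27, ENO1 at -0.27, LDHA at -0.26 and ALDOA at -0.24, named after their values were seen. At the same dose in TMD8, PFKFB4 changed by -0.49, PGK1 by -0.45, ENO1 by -0.47, LDHA by -0.78 and ALDOA by -0.42, all called lower, and ALDOC by 0.37, called higher. Over the list, 6 of 20 were called higher and 9 lower at 150 nM in TMD8 (19.2% and 25% of all genes). At 500 nM the counts were 8 higher and 8 lower for OCI-Ly1, with 9 higher and 6 lower for TMD8.

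RRM2B, a p53-induced subunit of ribonucleotide reductase, read 364, 406 and 413 CPM with DMSO, 362, 439 and 422 CPM at 150 nM and 266, 277 and 288 CPM at 500 nM in OCI-Ly1. In TMD8 it read 67.4, 62.3 and 63.1 CPM, 92.4, 96.8 and 93.3 CPM and 129, 133 and 127 CPM. Its OCI-Ly1 libraries overlapped between DMSO and 150 nM and stood clear at 500 nM, and its TMD8 groups were separate at each dose. Most p53 targets did not share its OCI-Ly1 direction. At 500 nM, 14 of 19 listed targets were called higher and 4 lower in OCI-Ly1, and all 19 were called higher in TMD8. The 4 that were lower in OCI-Ly1 were RRM2B, BTG2 at -0.44, POLH at -0.29 and TP53I3 at -0.65. The cell-cycle inhibitor CDKN1A was higher in both lines, at 3.05 and 1.48. KLLN, another gene described as a p53 target, read 14.2, 20.3 and 17.5 CPM, 23.6, 23.5 and 28.8 CPM and 32.4, 32.6 and 30.9 CPM in TMD8. In OCI-Ly1 at 500 nM it read 11.5, 12.6 and 13.2 CPM, beside 11.6 and 11.0 CPM in DMSO libraries 1 and 3.

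HSPA1A, an inducible HSP70 chaperone, had the largest TMD8 change of the set. It read 1.22, 2.73 and 2.76 CPM with DMSO, 12.3, 16.9 and 29.1 CPM at 150 nM and 199.6, 191 and 212 CPM at 500 nM in TMD8. Its OCI-Ly1 libraries read 3.96, 9.26 and 3.76 CPM, 3.0, 2.86 and 3.77 CPM and 4.42, 3.03 and 2.62 CPM, so the OCI-Ly1 difference rests on a few CPM and on 1 library. HSPA1B is a near-identical copy and reads can be split between the 2 genes. Their sum was 128 ± 7.01 CPM with DMSO and 131 ± 6.3 CPM at 500 nM in OCI-Ly1, against 85.4 ± 6.25 and 811 ± 19.8 CPM in TMD8. On the sum, the DMSO and 500 nM groups of OCI-Ly1 thus lay within a few CPM of each other. In the heat shock and metal list, 11 of 19 genes were called higher and 8 lower in TMD8 at 500 nM, and 8 higher and 8 lower in OCI-Ly1. GLYATL1, an acyltransferase-like gene, averaged 8.85 ± 0.434 CPM with DMSO and 6.05 ± 1.32 CPM at 500 nM in OCI-Ly1, against 16.1 ± 2.02 and 23 ± 3.25 CPM in TMD8.

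The remaining coding genes included PPP1R35, of centrioles, the RNA-binding protein gene RBMS2 and C15orf62. C15orf62 read 5.83, 5.12 and 5.99 CPM with DMSO and 3.28, 3.38 and 3.25 CPM at 500 nM in OCI-Ly1, and 3.87, 6.26 and 5.22 CPM and 11, 11.8 and 10.1 CPM in TMD8. PPP1R35 averaged 48.7 ± 2.3 CPM with DMSO and 33.4 ± 2.12 CPM at 500 nM in OCI-Ly1, against 14.1 ± 1.83 and 21 ± 2.0 CPM in TMD8. RBMS2 averaged 15.3 ± 0.911 CPM with DMSO and 10.1 ± 0.483 CPM at 500 nM in OCI-Ly1, against 15 ± 2.64 and 22 ± 1.1 CPM in TMD8.

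Apart from NCF1C, noncoding genes and pseudogenes accounted for 6 members, LOC644669 among them. ANKRD30BP2, a transcribed pseudogene, read 15.7, 11.5 and 14.1 CPM with DMSO, 13.8, 14.7 and 14.3 CPM at 150 nM and 7.25, 7.5 and 8.25 CPM at 500 nM in OCI-Ly1. The TMD8 values were 6.63, 5.22 and 6.37 CPM, 8.33, 7.3 and 9.44 CPM and 17.8, 16.7 and 17 CPM, with most of the difference between the 2 doses. TCL6 averaged 50.05 ± 3.58 CPM with DMSO and 29.6 ± 1.58 CPM at 500 nM in OCI-Ly1, against 8.27 ± 1.22 and 13 ± 1.19 CPM in TMD8. Its coding neighbour TCL1B, named after its values were seen, changed by -0.94 ± 0.05 in OCI-Ly1 and was at -0.03 ± 0.05 (not called) in TMD8. TCL1A, named in the same way, was called lower in both lines at 500 nM, by -0.55 ± 0.05 in OCI-Ly1 and -0.15 ± 0.05 in TMD8. LINC00652 averaged 15.2 ± 1.42 CPM with DMSO and 9.54 ± 0.528 CPM at 500 nM in OCI-Ly1, against 8.79 ± 1.75 and 12.7 ± 0.647 CPM in TMD8. PRICKLE2-AS3, which overlaps PRICKLE2, averaged 8.3 ± 0.38 CPM with DMSO and 4.55 ± 0.557 CPM at 500 nM in OCI-Ly1, against 7.26 ± 2.45 and 10.5 ± 0.763 CPM in TMD8. LOC100128682 (LINC01531) averaged 9.8 ± 1.01 CPM with DMSO and 6.22 ± 0.519 CPM at 500 nM in OCI-Ly1, against 7.74 ± 1.78 and 11.3 ± 2.33 CPM in TMD8. No strand is stated for the counting, so reads of overlapping or antisense genes cannot be told apart, and 29 of the 41 members overlap another RefSeq gene.

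The position of 150 nM between DMSO and 500 nM is given as a description, since it rests on the ratio and the DMSO libraries that chose the genes. In OCI-Ly1 the median of the 41 genes was -0.24 at 150 nM and -0.80 at 500 nM (edgeR log2 fold change against DMSO), against -0.00 at each dose over the 15638 genes tested. In TMD8 it was 0.42 at 150 nM and 0.79 at 500 nM, against 0.01 and 0.04 over 15363 genes. As a share of each gene's own 500 nM ratio, a median of 27.6% was present at 150 nM in OCI-Ly1 and 67.0% in TMD8. In OCI-Ly1 the share ran from -21.6% (OAS3) to 141% (ALDOC), and 5 genes were above DMSO at 150 nM. In TMD8 it ran from 22.6% (ID3) to 104% (OAS3), and all 41 were above DMSO. The lines also differed over all genes tested: at 150 nM edgeR called 19.2% higher and 25% lower in TMD8, against 0.748% and 0.141% in OCI-Ly1.

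With edgeR, 33 of the 41 genes were called higher at 150 nM in TMD8 (adjusted p under 0.05), where 19.2% of all genes tested were. In OCI-Ly1 the 150 nM calls were 1 lower (background 0.141%) and 0 higher (background 0.748%), while at an unadjusted p under 0.05 there were 20 lower. DESeq2 called 3 lower there, and no member was higher at an unadjusted p under 0.05 (0 of 41). Libraries of the 2 groups did not overlap for 19 genes lower at 150 nM in OCI-Ly1 (background 6.4%), for 0 higher there (background 7.62%) and for 35 higher in TMD8 (background 31.4%). The DMSO libraries of these contrasts were also used to choose the genes, so the counts are a description. From 150 to 500 nM, which shares the 500 nM libraries with the rule, 33 genes were called lower in OCI-Ly1 (background 21.1%) and 20 higher in TMD8 (background 13.7%). For 500 nM against DMSO, the contrast of the rule itself, 39 were called lower in OCI-Ly1 (background 25.9%) and 40 higher in TMD8 (background 29.9%), and nothing is read from these counts. KLLN (adjusted p = 0.059) and CCBE1 (0.055) were the members not called in OCI-Ly1. Without any CPM minimum, 506 of the 14483 genes tested in both lines (3.49%) were called lower in OCI-Ly1 and higher in TMD8 at 500 nM, and 38 of them were members.

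**Figure D4:**
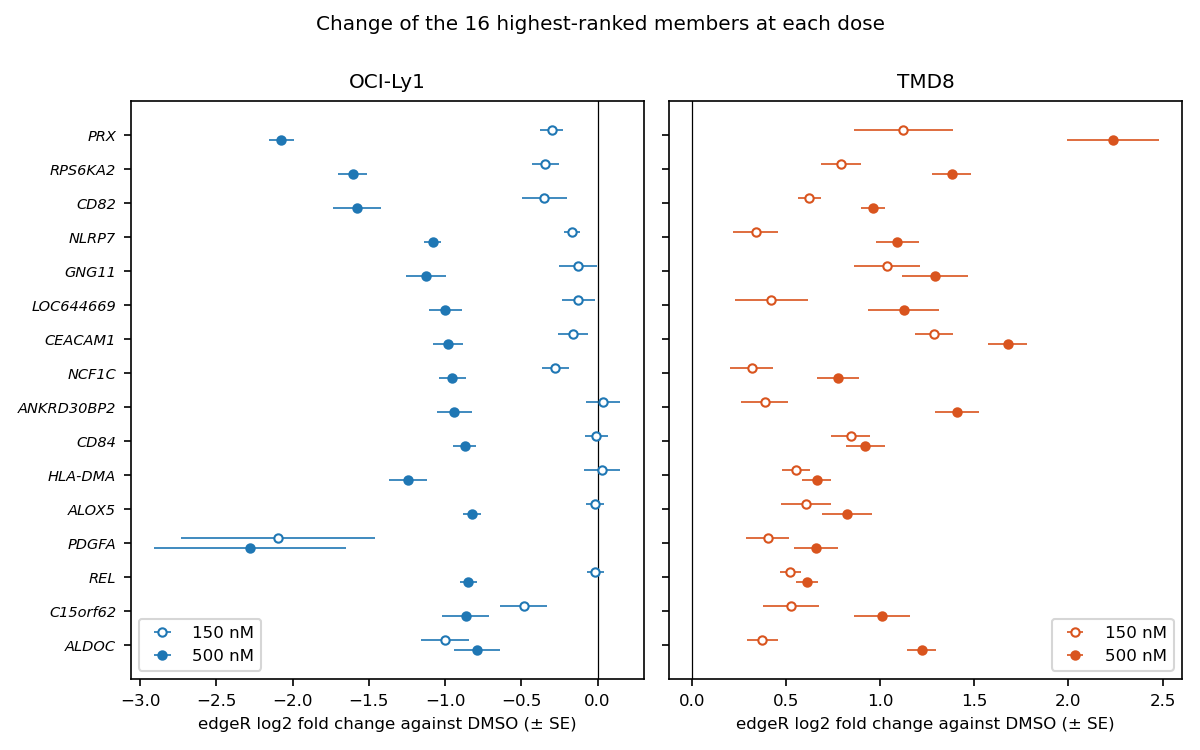
edgeR log2 fold change against DMSO, with its standard error, of the 16 highest-ranked genes at 150 nM (open) and 500 nM (filled) in OCI-Ly1 (left) and TMD8 (right; the axes have different ranges). In OCI-Ly1 PRX moves from -0.30 to -2.07 between the doses, while in TMD8 CEACAM1 is already at 1.29 with 150 nM and at 1.68 with 500 nM; PDGFA is the gene here with 1 high DMSO library in OCI-Ly1.

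The change at 150 nM differed between the lines for most members. In 1 fit of all 18 libraries, the change in OCI-Ly1 minus that in TMD8 was below 0 for all 41 genes, with a median of -0.65, and 37 were called (edgeR adjusted p under 0.05; background 8.33% lower). It was -1.44 ± 0.14 for CEACAM1, -1.43 ± 0.27 for PRX, -1.16 ± 0.21 for GNG11 and -0.53 ± 0.08 for REL. For ID3 it was -0.20 ± 0.13 and not called (adjusted p = 0.27), and LOC644669, ANKRD30BP2 and LILRB3 were also not called. For PDGFA the difference of -2.47 ± 0.76 fell to -0.44 and lost its call (adjusted p = 0.22) without the second OCI-Ly1 DMSO library. This contrast shares its 6 DMSO libraries with the rule and is given as a description.

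Which line had more of a transcript turned with dose for many of these genes. With DMSO, 29 of the 41 genes were higher in OCI-Ly1 and 12 in TMD8, with a median log2 difference of 0.91 (OCI-Ly1 minus TMD8). At 150 nM the split was 21 and 20 with a median of 0.01, and at 500 nM it was 10 and 31 with a median of -0.97. Over all 16604 genes tested the medians were -0.02, -0.09 and -0.09. Thus 19 genes went from higher in OCI-Ly1 to higher in TMD8, 10 stayed higher in OCI-Ly1, and 12 were higher in TMD8 throughout. These counts use the sign of the difference alone, and some differences were not called. Among the 19, NCF1C was at -0.01 at 500 nM (edgeR adjusted p = 0.92) and PRICKLE2-AS3 at 0.03 with DMSO (0.86). PDGFA was higher in OCI-Ly1 with DMSO only through the second library there, at 52.0 CPM. The direction of this shift is fixed by the rule for the DMSO and 500 nM groups. The spread of the gap was wide at every dose, from -4.97 (CD37) to 6.23 (PRX) with DMSO.

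**Figure D5:**
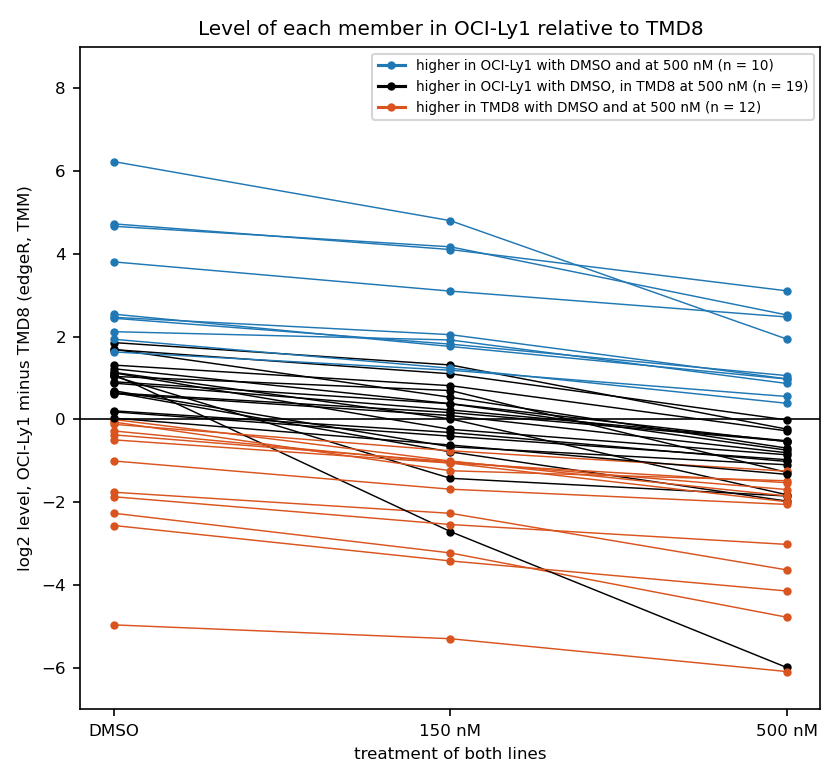
Log2 level in OCI-Ly1 minus that in TMD8 (edgeR, TMM-scaled counts) for each of the 41 genes with DMSO, 150 nM and 500 nM JIB-04; each line is 1 gene. All lines slope down from DMSO to 500 nM, as the rule requires, and 19 of them (black) cross from higher in OCI-Ly1 to higher in TMD8.

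The 6 libraries at 150 nM were the only ones the rule did not use. The comparison between lines at that dose contrasts them alone, but its edgeR fit took scaling, filter and spread from all 18 libraries. With edgeR, 17 of the 41 genes (41.5%) were higher in OCI-Ly1 and 19 (46.3%) were higher in TMD8, against 38.2% and 41.9% of all 16604 genes tested. Libraries did not overlap for 17 higher (background 40.4%) and 18 lower (background 40.2%). The members' shares were thus near those of all genes tested. These include genes under the CPM minimum that members had to meet, and no share is given for the 10273 genes at that minimum. How often the lines differed within the set is therefore only described. The largest differences toward OCI-Ly1 were 4.80 ± 0.13 for PRX, 4.17 ± 0.07 for NLRP7 and 4.11 ± 0.08 for ALOX5. The largest toward TMD8 were -5.30 ± 0.09 for CD37, -3.42 ± 0.09 for WNT10A and -3.23 ± 0.10 for CD82, all with an adjusted p of at most 3.4e-21. RPS6KA2 (0.01 ± 0.10, adjusted p = 0.9) and REL (0.09 ± 0.05, adjusted p = 0.12) were not called. The split depended on the scale: limma on log2(TPM + 1) called 27 higher in OCI-Ly1 and 7 higher in TMD8. No share over all genes is given on that scale, so this split is not read against a background. In TMD8 a single short RNA gene, MIR3687, took 15.2% to 24.3% of each library's TPM, and in OCI-Ly1 RPPH1 took 6.33% to 10.6%. Their part in the difference between scales was not tested.

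The same scales bear on the set itself. All 41 genes stayed lower in OCI-Ly1 and higher in TMD8 at 500 nM in each of 8 fits (TMM, library size, DESeq2, no low-count filter, 3 TPM scales and a replicate block). The number called in both lines was 38 in the TMM fit and 20 on log2(TPM + 1), where the median of all genes in TMD8 moved to -0.22. With each library centred on its median, the TPM fit called 37. The rule applied to deposited TPM in place of CPM found 27 genes, of which ALDOC, CD82 and RASAL1 were members. Of the 38 members it left out, 27 were under 5 TPM in a line, and of the rest 10 missed the TMD8 threshold and 3 the OCI-Ly1 threshold, some of them both. The choice of the members fixes these directions, and which genes are members depends on the CPM scale.

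Beyond the rule, the members had no common place in the genome. They lay on 17 chromosomes, 34 were protein-coding, and HLA-DMA with HLA-DMB was the only neighbouring pair. Their transcripts had a median GC content of 52.1% (40 of 41 with a value) against 47.5% over 10069 genes. Median transcript length was 3306 bases against 3719. Of 25 fixed lists holding 527 matched genes, 8 were members, among them ALDOC, HLA-DMA, HLA-DMB, HSPA1A, ID3, OAS3 and RRM2B. None was in the lists of germinal-centre, activated B-cell-like, B-cell receptor or NF-kB target genes.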

How the data were processed

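RNA was measured in 18 libraries, and the p-values describe technical replicates. The deposited gene table holds estimated counts and length-scaled transcript abundances (TPM) for each library. Per the submitters' processing notes, kallisto 0.46.0, hg19, R 4.3.1 and DESeq2 1.40.2 were used by the authors, with no role given for each. The deposited TPM values were made by the authors and are relative to transcript length and library. CPM was computed here from the estimated counts as deposited, which were rounded for the tests.

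Each line was fitted alone and both lines together with edgeR 4.0.16 (quasi-likelihood test, TMM scaling, low-count filter, R 4.3.3), with p-values adjusted by Benjamini-Hochberg over all genes tested and a threshold of 0.05. Alternatives used DESeq2 1.42.0 and limma 3.58.1. The fitting was tested on simulated data, and the outcome is not given here. The simulation gave every gene the same spread and changed few genes, equally up and down. It therefore does not test the fit under changes as wide as those in these libraries. Every sample column was mapped to its label. No fit imputed a value, and only the leave-one-out fits dropped a library. Replicate numbers were checked for pairing without a settled answer. The main fits did not use them, and a replicate block was fitted as an alternative.

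The members and lists were chosen with earlier results of these data known, and genes were grouped by role with values in view. Genes given in full were the first 16 by the smaller of their 2 ratios, the 4 highest by TPM, the 3 largest differences between lines at 150 nM each way, members of lists and those beside each threshold. The first 8 were given library by library, and the remaining members mostly by group means. Promoter coordinates are those of RefSeq on GRCh38.p14, since the build of the notes differs, and no coordinate was converted. A few genes are not reported here.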

Additional observations from a re-analysis of the deposited data

Results flagged for a closer look

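The change from DMSO to 150 nM JIB-04 differed between the cell lines for 14 of the 16 highest-ranked genes. These were called by a test of the difference itself in 1 edgeR fit of both lines (adjusted p under 0.05). All 14 values were below 0, where 8.33% of the 16604 genes tested were called lower. As the log2 change in OCI-Ly1 minus that in TMD8, the value was -1.43 for PRX, -1.12 for RPS6KA2, -0.96 for CD82, -0.50 for NLRP7, -1.16 for GNG11 and -1.44 for CEACAM1. It was -0.58 for NCF1C, -0.84 for CD84, -0.51 for HLA-DMA, -0.62 for ALOX5, -0.53 for REL, -1.0 for C15orf62 and -1.36 for ALDOC. For PDGFA it was -2.47, which became -0.44 and was no longer called without the second DMSO library of OCI-Ly1 (adjusted p = 0.218), and -2.35 without the third 150 nM library of TMD8 (adjusted p = 0.0522). The DMSO libraries in these differences also served to choose and rank the genes, so the count is a description.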

How the results depend on the processing

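Membership depended on the thresholds. The rule gave 41 genes, against 27 on TPM, 126 with a minimum of 1 CPM, 25 with a minimum of 10 CPM, 96 with a log2 threshold of 0.4 and 23 with 0.6. Leaving out 1 library at a time gave 36 to 58 genes. A correction for transcript GC content, chosen after seeing the data, gave 41, of which 35 were members.

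On log2(TPM + 1) and log2(TPM + 0.1) in limma, fewer members were called: 16 and 16 higher at 150 nM in TMD8 (33 with edgeR and TMM), 23 and 23 at 500 nM (40), and 7 and 7 from 150 to 500 nM (20). At 150 nM between lines, 27 and 27 were higher in OCI-Ly1 (17) and 7 and 7 higher in TMD8 (19). The difference between lines in the 150 nM change was called for 18 and 17 (37). The cause was not tested, and no shares over all genes are given on these scales. The number called lower at 150 nM in OCI-Ly1 was 1 with edgeR, 3 with DESeq2, 7 with no low-count filter, 0 on each of the 3 TPM scales and 1 to 4 with 1 library left out. Other ranges with 1 library left out were 26 to 36 (TMD8 at 150 nM) and 29 to 38 (difference between lines).

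Among the named genes, these directions turned under an alternative. On log2(TPM + 1) and log2(TPM + 0.1), the difference between lines at 150 nM became 0.30 and 0.37 for CEACAM1, 0.092 and 0.13 for C15orf62, 0.83 and 0.89 for ALDOC, and 0.10 and 0.13 for OAS3. On these scales the 150 nM change became 0.026 and 0.0295 for CD84, 0.014 and 0.014 for ALOX5 and 0.018 and 0.018 for REL in OCI-Ly1, and -0.088 and -0.10 for ID3 in TMD8. CD84 was at 0.0015 with no low-count filter. With 1 library left out, the OCI-Ly1 change at 150 nM ranged from -0.064 to 0.14 for ANKRD30BP2, -0.049 to 0.029 for CD84, -0.026 to 0.072 for HLA-DMA, -0.065 to 0.025 for ALOX5, -0.049 to 0.029 for REL and -0.018 to 0.13 for RRM2B, and the difference between lines from -0.026 to 0.048 for RPS6KA2.

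With a replicate block, the number called lower at 150 nM in OCI-Ly1 was 3, and no other count of calls moved by over 1.5 times. Same-numbered libraries had correlations of -0.0656 to 0.261 in OCI-Ly1 and -0.0675 to 0.169 in TMD8. Libraries of other numbers had -0.289 to 0.0699 and -0.210 to 0.149. The ranges overlap, and the highest value in each line was of a same-numbered pair. Whether the numbers pair the samples is therefore not settled. The shallowest TMD8 libraries limit genes of a few CPM, such as PRX with DMSO.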
